A study of Rattus norvegicus with 22 samples.

Results

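Neurofilament genes and other genes of the axonal cytoskeleton were followed across identified spinal neurons. Members were all probe sets whose gene symbol in the platform annotation was Nefl, Nefm, Nefh, Ina, Prph, Mapt, Map2, Map1b or Tagln3. They numbered 15 of the 1050 probe sets in the deposited table and stood for 7 of the 9 genes, out of 643 genes named on the table, since no probe set analysed here carried the symbol Ina or Prph. Amplified RNA of laser microdissected cells from segment L2 of the neonatal Wistar rat spinal cord was hybridized to RN_U34 arrays (Affymetrix). Motoneurons (MNs, 7 arrays) were labeled by a rhodamine dextran tracer applied to the cut ventral roots of that segment. Descending commissural interneurons (dCINs, written CIN in the sample labels, 7 arrays) were labeled from a hemi-transection of the cord between L3 and L4. MIX samples (8 arrays) were cells dissected at random from the ventral horn, and so could hold any cell type there. Each array came from 1 animal. After the tracer was applied, the isolated cord was kept in Ringer's solution before freezing. Whether the cords of MIX samples were treated alike is not stated. MNs and dCINs were chosen by the course of their axons and not by a transcript.

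Neurofilaments are the intermediate filaments of neurons. They are built from a light (Nefl), a medium (Nefm) and a heavy (Nefh) subunit, with alpha-internexin (Ina) or peripherin (Prph) as further partners, and their amount sets the caliber of large myelinated axons such as those of MNs. Microtubules run beside them and are bound by tau (Mapt) in axons, by Map2 mainly in dendrites and by Map1b in growing neurites. Tagln3 (neuronal protein 22) is a neuronal relative of the actin-binding protein transgelin. According to the RefSeq annotation (GRCr8), Nefl and Nefm both lie on chromosome 15 with 1 annotated pseudogene and no protein-coding gene between them, and Nefh lies on chromosome 14.

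Values are the deposited signal intensities on a linear scale, and differences are given as log2. Every array received the same amount of amplified RNA and was normalized with the others, so a signal is relative and not an amount per cell. Array medians ran from 43.5 to 50.9, and a sample held 50 to 100 dCINs, 55 to 250 MNs or 95 to 187 MIX cells. The labels were checked first on transmitter genes. Slc18a3, the vesicular acetylcholine transporter, averaged 4040 in MNs, 2558 in MIX and 566 in dCINs on its brighter probe set. Slc32a1, the vesicular GABA and glycine transporter, averaged 514 in dCINs, 400 in MIX and 125 in MNs on its brighter probe set. On these probe sets single arrays spread widely. Slc18a3 ran from 55.8 to 1133 among dCIN arrays, all below the lowest MN array at 2692. For Slc32a1 the ranges overlapped, since the highest MN array read 366 and the lowest dCIN array 352. Whether a labeled group held cells of the other type was not tested. Arrays numbered 1 and 2 stood apart from the rest of their group for several members, and the MN samples with these numbers were also the MN samples of over 200 cells. In tissue dissected by laser, fewer cells of a type and less RNA per cell cannot be told apart. Among markers of other cells, the myelin gene Mbp averaged 37.0 in dCINs, 36.0 in MNs and 37.4 in MIX, below the lowest array median, and the microglial gene Itgam averaged 16.4, 17.3 and 20.8. Some other genes of the oligodendrocyte list read above the array medians and are given further below.

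On their bright probe sets, the light and the heavy neurofilament transcripts had a higher signal in MNs than in dCINs, and the MIX means lay between. On its bright probe set (AF031880_at), Nefl was 2.30-fold higher in MNs, and on its bright probe set (rc_AA818677_at), Nefh was 2.43-fold higher. The medium subunit Nefm, the brightest of all 1050 probe sets by mean log2 signal, was 1.22-fold higher in MNs, a difference that did not pass the test. Tagln3 was 1.71-fold higher in MNs. No probe set of Mapt, Map2 or Map1b passed.

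Nefl signals (AF031880_at) among dCINs were 1366 at the lowest, 1761 at the median and 1883 at the highest. Among MNs they were 3134, 3937 and 4755 in the same order, and among MIX arrays 1651, 2556 and 4136. The highest dCIN array thus lay below the lowest MN array, while MIX arrays spread over both ranges, with 7 of 8 above the highest dCIN and 6 of 8 below the lowest MN. The means were 1682 ± 207 in dCINs (SD, n = 7), 3867 ± 545 in MNs (SD, n = 7) and 2744 ± 789 in MIX (SD, n = 8). In limma the log2 difference of dCINs from MNs was -1.20 with an SE of 0.11 and an adjusted p of 1.91e-05, the smallest p of all probe sets. The difference of MIX from dCINs was 0.66 with an SE of 0.15 and an adjusted p of 0.0669, and so passed, although leaving out CIN replicate 1, 3, 4 or 7 or MIX replicate 1, 5 or 7 each lost the call, with adjusted p from 0.104 to 0.176. MIX differed from MNs by -0.53 with an SE of 0.15, which did not pass at an adjusted p of 0.165 but did without MIX replicate 7 (-0.63, adjusted p = 0.0371) and without MIX replicate 2 (-0.59, adjusted p = 0.0633).

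Nefh signals (rc_AA818677_at) among dCINs were 718 at the lowest, 1522 at the median and 1941 at the highest. Among MNs they were 2496, 3160 and 4731, and among MIX arrays 1606, 2209 and 3066. Here too no dCIN array reached the lowest MN array, and 6 of 8 MIX arrays exceeded the highest dCIN. The means were 1395 ± 416 in dCINs (SD, n = 7), 3313 ± 767 in MNs (SD, n = 7) and 2269 ± 493 in MIX (SD, n = 8). The log2 difference of dCINs from MNs in limma was -1.28 with an SE of 0.21 and an adjusted p of 0.00218. Against dCINs, MIX was higher by 0.74 with an SE of 0.19, which did not pass at an adjusted p of 0.114 but did without CIN replicate 5 (0.83, adjusted p = 0.0763), without MIX replicate 3 (0.80, adjusted p = 0.0685) and without MN replicate 2 (0.74, adjusted p = 0.0942). Against MNs, MIX differed by -0.55 with an SE of 0.19 and an adjusted p of 0.28.

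Nefm signals (Z12152_at) among dCINs were 3909 at the lowest, 5580 at the median and 6582 at the highest. Among MNs they were 3949, 7190 and 8303, and among MIX arrays 5403, 6319 and 8084. The ranges of dCINs and MNs overlapped, and the lowest signals among MNs, 3949 and 5662, belonged to the arrays numbered 2 and 1, whereas the other 5 MN arrays lay at 7140 or above, over the highest dCIN. The log2 difference of dCINs from MNs was -0.29 with an SE of 0.16 and a limma adjusted p of 0.598. Without the MN samples of over 200 cells it was -0.48 with an adjusted p of 0.0486, and on arrays numbered 3 and above -0.51 with an adjusted p of 0.071. It also passed with array weights (-0.43, adjusted p = 0.0496). It did not pass with the number of cells as covariate (-0.44, adjusted p = 0.3) or with arrays 1 and 2 as covariate (-0.29, adjusted p = 0.326). MIX differed from MNs by -0.02 and from dCINs by 0.26, with adjusted p of 0.95 and 0.798.

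**Figure D1:**
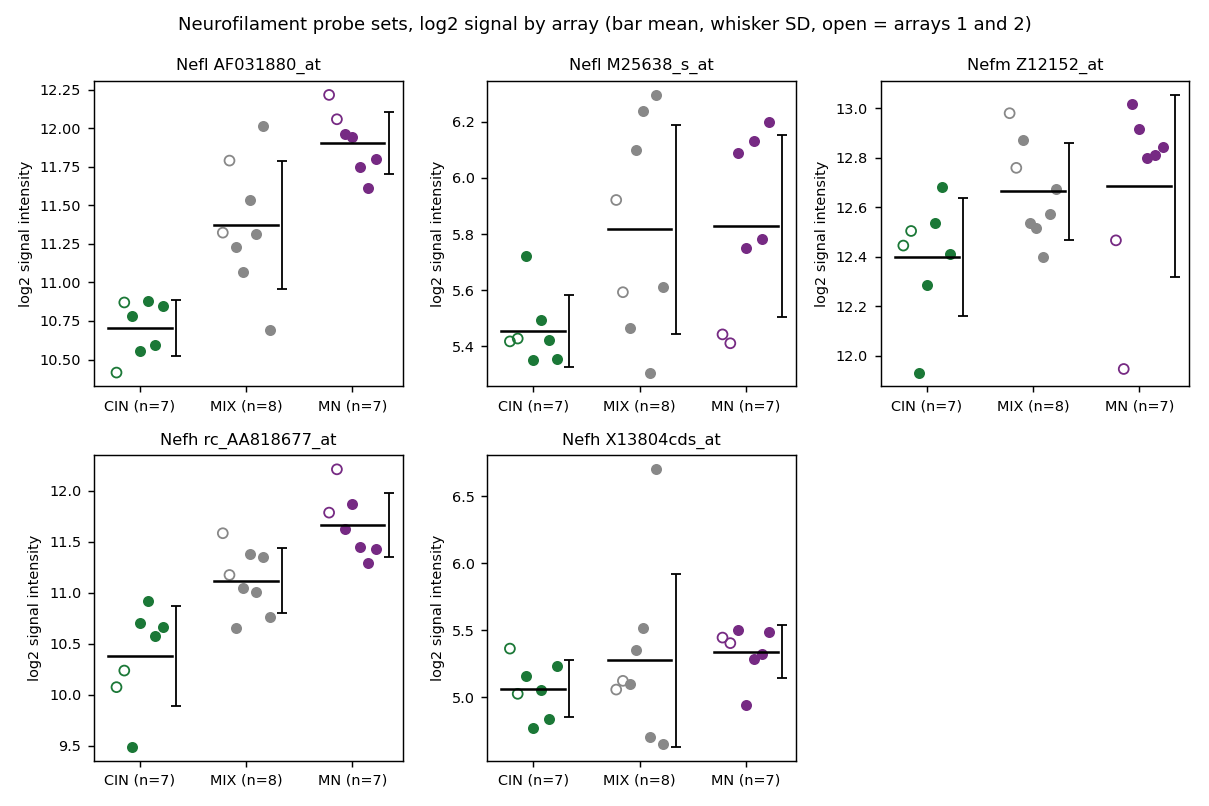
Log2 signal intensity (y axis) of each neurofilament probe set in every array, by group (x axis: CIN, the dCINs, n = 7, MIX, n = 8, and MN, n = 7). Each point is 1 array, open points are the arrays numbered 1 and 2, bars are group means and whiskers the SD. On the bright Nefl and Nefh probe sets the highest CIN array, at 1883 and 1941 before the log2, lies below the lowest MN array, at 3134 and 2496, and on Nefm the ranges overlap.

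Nefl and Nefh each had a second, dim probe set, on which the groups differed less. The dim Nefl probe set (M25638_s_at) read 44.0 ± 4.14 in dCINs (SD, n = 7), 58.1 ± 12.7 in MNs (SD, n = 7) and 58.0 ± 14.9 in MIX (SD, n = 8). Its log2 difference of dCINs from MNs was -0.37 with an SE of 0.13 and a limma adjusted p of 0.223. The MN arrays numbered 1 and 2 read between 42.6 and 43.5 there, inside the dCIN range, and the other 5 read 53.9 to 73.5, above it. The difference passed without MN replicate 2 (-0.44, adjusted p = 0.0977), without the MN samples of over 200 cells (-0.53, adjusted p = 0.0117), on arrays numbered 3 and above (-0.52, adjusted p = 0.0361) and with the number of cells as covariate (-0.59, adjusted p = 0.00857). It also passed with array weights (adjusted p = 0.0226) and with arrays 1 and 2 as covariate (adjusted p = 0.071). The dim Nefh probe set (X13804cds_at) read 33.7 ± 4.88 in dCINs (SD, n = 7), 40.8 ± 5.05 in MNs (SD, n = 7) and 43.0 ± 25.6 in MIX (SD, n = 8), with a difference of dCINs from MNs of -0.28 and an adjusted p of 0.367. Both dim probe sets read close to the array medians of 43.5 to 50.9.

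Probe sets were also set against each other within arrays, by taking the difference of log2 signals of a pair in each array and comparing dCINs with MNs by an exact two-sided permutation test over all 3432 splits of the 14 arrays, whose smallest p is 0.000583. There were 15 pairs, namely all pairs of probe sets of a gene and all pairs among the neurofilament genes, and 4 passed after Benjamini-Hochberg adjustment over the 15. Nefl less Nefm averaged -1.69 ± 0.31 in dCINs (SD, n = 7) and -0.78 ± 0.50 in MNs (SD, n = 7). This within-array difference shifted by -0.91 between the groups, with an exact permutation p of 0.00117 and an adjusted p of 0.00437. Nefm less Nefh averaged 2.02 ± 0.37 in dCINs (SD, n = 7) and 1.02 ± 0.64 in MNs (SD, n = 7), a shift of 1.00 at the smallest exact p and an adjusted p of 0.00291. Dropping the arrays numbered 1 and 2 brought the shifts to their smallest sizes, -0.57 and 0.55, which still passed at adjusted p of 0.0595 and 0.0397.

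Nefl less Nefh averaged 0.33 ± 0.50 in dCINs (SD, n = 7) and 0.24 ± 0.21 in MNs (SD, n = 7), and the shift of 0.08 had an exact permutation p of 0.738. The spread within dCINs, from -0.15 to 1.29, was wider than the shift. The other passing pairs were the bright against the dim probe set of the same gene, with shifts of -0.83 for Nefl and -1.01 for Nefh. Probe sets of 1 gene thus shifted against each other by as much as those of different genes, and a shift here is one between probe sets and not shown to be one between genes. The dim Nefh probe set read below the lowest array median in every group mean, and the Nefm signals in MNs, up to 8303, lay near the highest signal of the table, 8642. Whether the range of the signals narrowed either difference was not tested. No pair of probe sets of Mapt, Map2 or Map1b passed, the smallest adjusted p being 0.393.

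**Figure D2:**
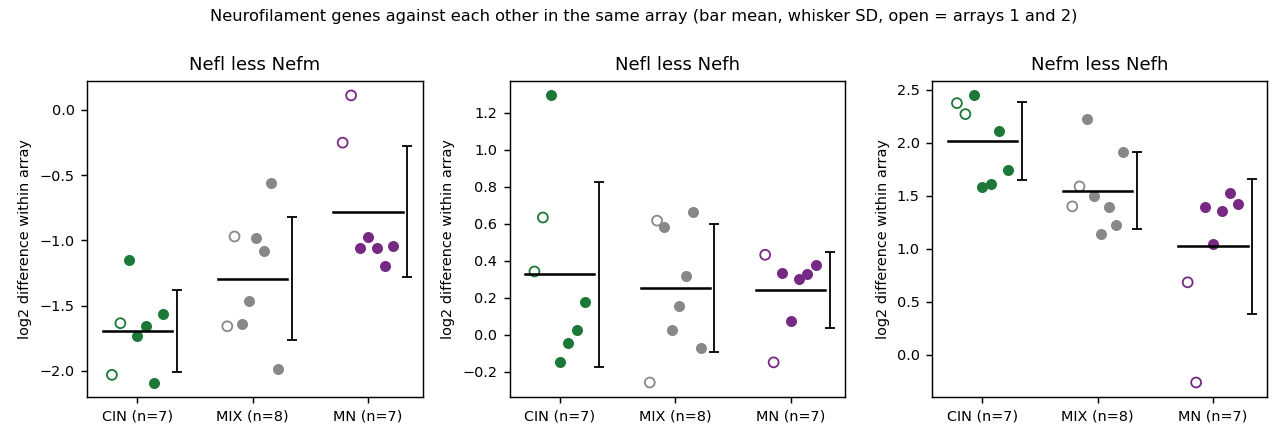
Within-array log2 difference (y axis) of neurofilament genes on their brightest probe sets, by group (x axis: CIN, n = 7, MIX, n = 8, and MN, n = 7). Each point is 1 array, open points are the arrays numbered 1 and 2, bars are means and whiskers the SD. Nefl less Nefm and Nefm less Nefh shift between CIN and MN by -0.91 and 1.00, and Nefl less Nefh by 0.08.

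Tagln3 signals (M84725_at) among dCINs were 536 at the lowest, 656 at the median and 1291 at the highest. Among MNs they were 909, 1208 and 1770, and among MIX arrays 469, 856 and 1100. The ranges overlapped, because the dCIN arrays numbered 1 and 2 read 1291 and 966 while the other 5 dCIN arrays read 536 to 670, below every MN array. The log2 difference of dCINs from MNs was -0.78 with an SE of 0.21 and a limma adjusted p of 0.0659. It was -0.83 on arrays numbered 3 and above, with an adjusted p of 0.00288, and with arrays 1 and 2 as covariate the adjusted p was 0.000424. It was lost without the MN samples of over 200 cells (-0.58, adjusted p = 0.204), with the number of cells as covariate (-0.61, adjusted p = 0.276) and with quantile normalization (-0.68, adjusted p = 0.261), and leaving out 1 array at a time kept it in 4 of 14 cases. Every dCIN array from 3 to 7 and the MN arrays 1, 2, 5, 6 and 7 were needed for the call, with adjusted p from 0.107 to 0.146 without them. MIX lay near dCINs, at 826 ± 209 (SD, n = 8) against 764 ± 270 (SD, n = 7), and its difference from MNs was -0.64 with an adjusted p of 0.237.

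Both tau probe sets were bright and similar between groups. The first Mapt probe set (rc_AA957930_s_at) read 2495 ± 619 in dCINs (SD, n = 7), 2107 ± 512 in MNs (SD, n = 7) and 2268 ± 426 in MIX (SD, n = 8), a log2 difference of dCINs from MNs of 0.24 with a 95% interval from -0.17 to 0.65. Among dCINs the arrays numbered 1 and 2 read 1561 to 1901 and the others 2213 to 3253, whereas among MNs arrays 1 and 2 read 2444 to 2859 and the others 1290 to 2292. On arrays numbered 3 and above alone the difference was 0.59 and passed, with an adjusted p of 0.0888. The second Mapt probe set (rc_AI227608_s_at) read 1497 ± 512 in dCINs, 1519 ± 468 in MNs and 1637 ± 622 in MIX, a difference of -0.03 with an interval from -0.60 to 0.53.

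Map2 was covered by 4 probe sets and Map1b by 3, all of them far dimmer than the bright neurofilament probe sets. Their group means ran from 13.6 to 123, beside 33.7 to 58.1 for the dim Nefl and Nefh probe sets. The widest scatter of any member was that of Map2 X17682_s_at, with dCIN arrays between 13.6 and 152, MN arrays between 14.8 and 117 and MIX arrays between 28.2 and 262. Its lowest dCIN and MN arrays were those numbered 1 and 2, and its log2 difference of dCINs from MNs was 0.43 with an SE of 0.61. MIX exceeded MNs on this probe set by 1.28 with an SE of 0.59, which did not pass at an adjusted p of 0.412. The other Map2 probe sets averaged between 13.6 and 73.6 over the groups, with differences of dCINs from MNs between -0.08 and 0.30. Map1b probe sets averaged between 17.2 and 35.3 and differed between dCINs and MNs by 0.03 to 0.16. For U52950_at the 95% interval ran from -0.07 to 0.38, and for X16623cds_s_at from -0.18 to 0.24.

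**Figure D3:**
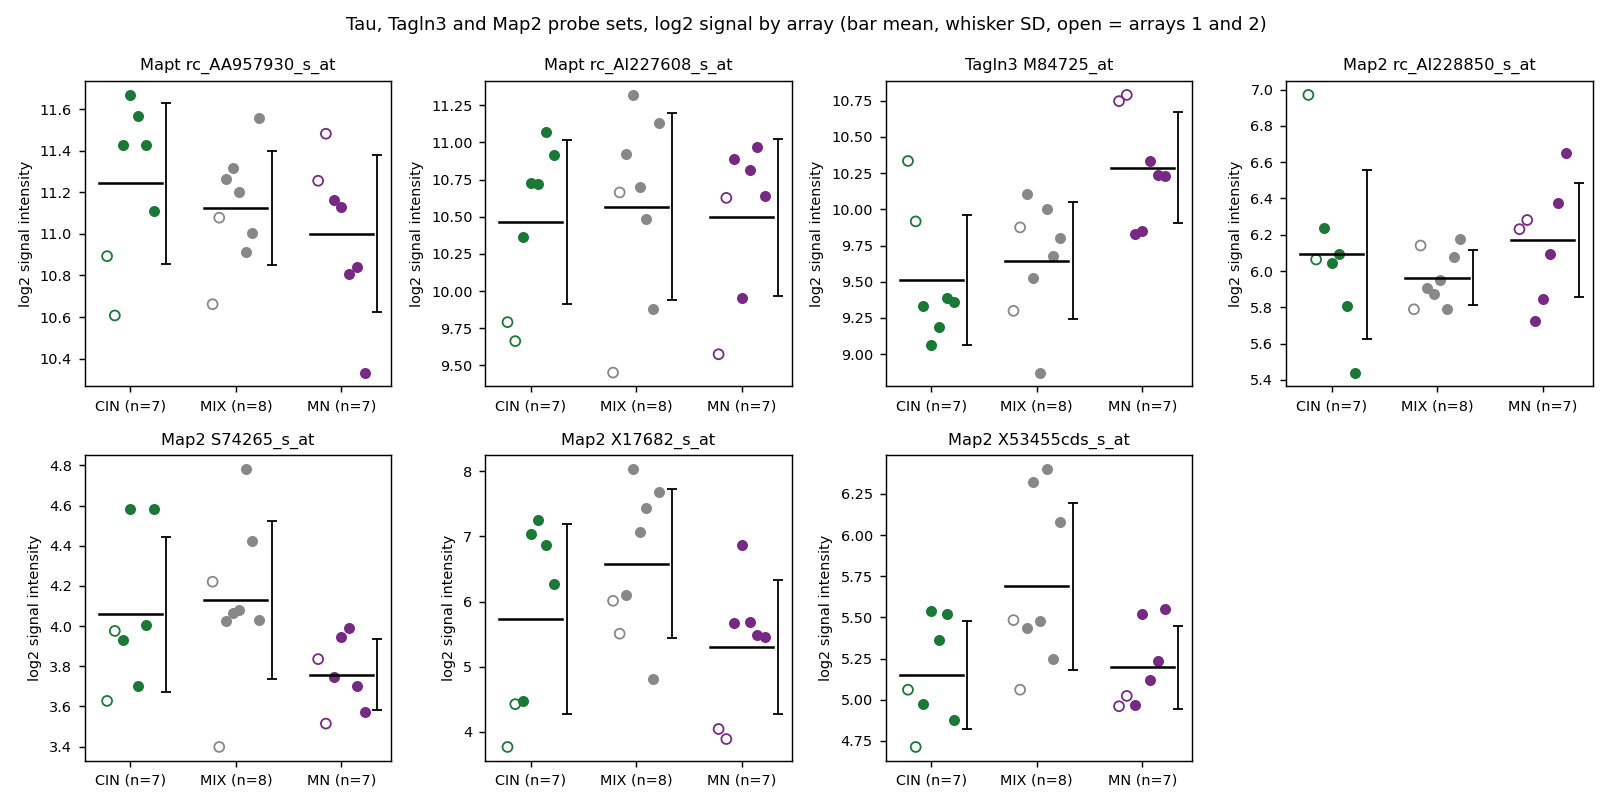
Log2 signal intensity (y axis) of the Mapt, Tagln3 and Map2 probe sets in every array, by group (x axis: CIN, n = 7, MIX, n = 8, and MN, n = 7). Each point is 1 array, open points are the arrays numbered 1 and 2, bars are group means and whiskers the SD. Of the plotted genes Tagln3 alone passed between CIN and MN, and arrays 1 and 2 are its highest in both groups.

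Taking the members as a whole, 3 of 15 probe sets passed between dCINs and MNs, all of them higher in MNs. Over all probe sets 3.81% passed in either direction and 1.43% passed with the higher signal in MNs. The paper had reported Nefl, Nefh and Tagln3 as higher in MNs on these same arrays, and the members were chosen with earlier results known. The shares among members were thus partly set in advance and are a description, not a test. The 3 were bright, at or above the 97.7 percentile of mean log2 signal, and bright probe sets passed more often. Among the 364 probe sets with a mean log2 of at least 6, 39 passed when fitted alone, the same 3 members among them. The ranges of dCINs and MNs did not overlap for 2 of the 15, Nefl and Nefh, against 1.62% of all probe sets. The median log2 difference of the 15 was -0.05 and that of all 1050 was -0.03, and 9 of the 15 differences were negative. Between MIX and MNs 0 of 15 passed in limma, beside 0.952% of all probe sets called. An unadjusted limma p under 0.05 was found there for 7 of the 15 and for 11.8% of all probe sets. The 7 went both ways. The bright Nefl and Nefh probe sets and Tagln3 were lower in MIX. Map2 S74265_s_at, X17682_s_at and X53455cds_s_at and Map1b U52950_at were higher in MIX. The same count was 5 of 15 between dCINs and MNs, beside 10.9% of all, and 4 of 15 between MIX and dCINs, beside 7.14%. Between MIX and dCINs 1 of 15 passed, Nefl, beside 0.476% of all. These comparisons share arrays and are not independent of each other.

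**Figure D4:**
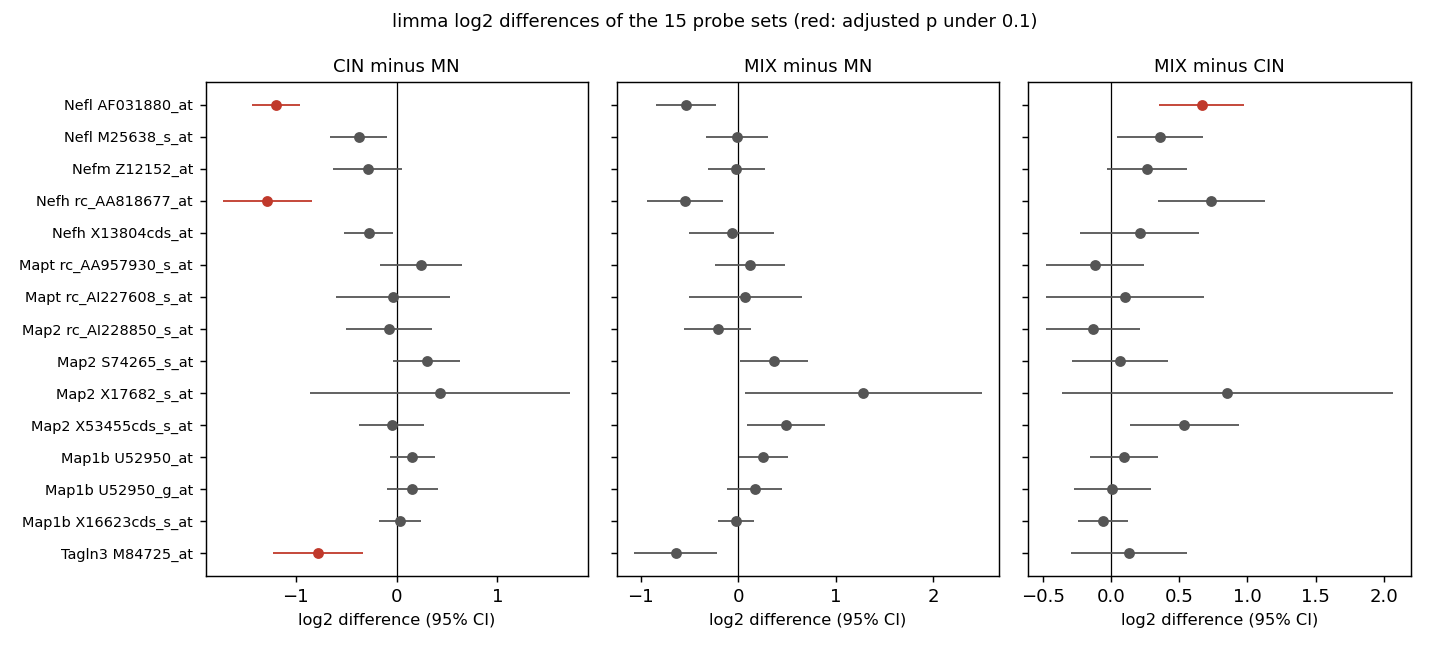
Log2 differences (x axis) with 95% confidence intervals from limma for the 15 probe sets (y axis), for CIN minus MN, MIX minus MN and MIX minus CIN. Red points have an adjusted p under 0.1. Nefl, Nefh and Tagln3 lie below 0 for CIN minus MN, at -1.20, -1.28 and -0.78, and Nefl above 0 for MIX minus CIN, at 0.66.

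Other genes of the axonal cytoskeleton were taken from 6 lists that exclude the members, of which 16 genes were measured by 27 probe sets. Between dCINs and MNs 2 passed with the higher signal in MNs and 1 with the higher signal in dCINs, or 11.1% of the 27. Of all 1050 probe sets, 3.81% passed in either direction and 1.43% with the higher signal in MNs. The lists too were drawn up with earlier results known, and the paper had reported Sncg and Hspb1 as higher in MNs. The share among the 27 is therefore a description as well. The median difference of the 27 was -0.06, beside -0.03 for all 1050. All 3 called probe sets came from the list of growth and other axonal proteins. Sncg (gamma-synuclein), a protein of peripheral and motor axons, read 219 in dCINs, 500 in MIX and 1143 in MNs, a log2 difference of dCINs from MNs of -2.42 with an SE of 0.31. Hspb1, a small heat shock protein, read 53.5 in dCINs and 90.6 in MNs on the probe set that passed, a difference of -0.73 with an SE of 0.16, while its other probe sets differed by -0.13 and -0.11. Gap43, a growth cone protein, was higher in dCINs, at 2421 against 1920 in MNs, with a difference of 0.34, an SE of 0.10 and a limma adjusted p of 0.0979.

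None of the remaining lists held a called probe set in this comparison. Among other intermediate filaments, Vim (vimentin) differed by -0.25 and Nes (nestin) by -0.06. Among microtubule proteins, the smallest p values were those of Map1a, with a difference of -0.24, and of Tubb5 (a beta-tubulin), with 0.26, while the other Tubb5 probe sets differed by -0.26, -0.28 and -0.06. Dynll1, a dynein light chain and the 1 gene of the transport motors with a named probe set, differed by 0.51 with an SE of 0.34. Among kinases, phosphatases and proteases, Ppp3ca (a calcineurin subunit) differed by 0.34 and Mapk9 by 0.24. That Mapk9 probe set read 34.5 in dCINs and 29.2 in MNs, below the array medians, and the other Mapk9 probe sets differed by -0.17 and 0.004. No probe set carried the symbol of an actin or membrane skeleton gene of the last list in the annotation used here. Such genes may lie among the probe sets without a name, and the paper mentions beta-actin on its microarrays.

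Of the astrocyte list, 5 of 10 genes were measured by 9 probe sets, and 1 passed between dCINs and MNs. The annotation used here names no probe set for Gfap, the defining gene of that list, and 82 probe sets without a name may include genes of these lists. Apoe, an apolipoprotein made by astrocytes, was higher in dCINs on that probe set (6027 against 3768, limma adjusted p = 0.0125). The summed level of the astrocyte list ran from 5837 to 9145 in dCINs, from 4360 to 6622 in MNs and from 3755 to 9791 in MIX. Most of that sum was this Apoe probe set, and the median log2 difference of the list was 0.12. The other Apoe probe set and S100b were also higher in dCINs, by 0.79 and 0.53, but did not pass (limma adjusted p = 0.118 and 0.17). Only Vim and 1 probe set of Slc1a3 differed the other way, by -0.25 and -0.07. Of the oligodendrocyte list, 5 of 9 genes were measured, none passed, and the sums ran from 739 to 1188 in dCINs, from 768 to 1039 in MNs and from 641 to 1490 in MIX. On their brightest probe sets, Cnp averaged 220 in dCINs and 227 in MNs, Mag 126 and 127, and Pdgfra 229 and 134. The Pdgfra difference of 0.83 did not pass (limma adjusted p = 0.293), and the median log2 difference of the oligodendrocyte list was -0.03. The part of other cells in the neurofilament differences was not tested.

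The genes whose log2 signal followed Nefl most closely over the 22 arrays were Ngfr (Pearson r = 0.84), Calcb (0.83), Nefh (0.83), Sncg (0.78) and Slc18a3 (0.70). With the group means removed these correlations were 0.36, 0.40, 0.42, 0.10 and 0.00. For Nefh the closest were Nefl (0.83), Sncg (0.80), Ngfr (0.76), Adra1d (0.76) and Slc18a3 (0.74), and with group means removed 0.42, 0.27, 0.18, 0.39 and 0.23. Nefm had other neighbours, Prkcz (0.70), Glra2 (0.69), Slc18a3 (0.63), Hspb1 (0.63) and Agrn (0.62), whose values with group means removed were 0.66, 0.73, 0.52, 0.52 and 0.72. The correlations of Nefl and Nefh thus fell when the group means were removed, and those of Nefm changed less. They are the highest among about 960 probe sets, share the same arrays and normalization, and are given as a description.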

How the data were processed

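The deposited table holds signal intensities on a linear scale for 1050 probe sets in 22 arrays. According to the methods, the authors amplified the RNA of each sample in successive rounds, subtracted the lowest perfect-match intensity of each array, applied quantile linear transformation and quantile projection normalization over all arrays, summarized probes with the Li-Wong model (affy package) and subtracted a universal minimum, which enlarges ratios of dim probe sets. Probe sets were named through the platform annotation, which gave 961 of them 1 gene symbol, 7 several genes and 82 none. The array number limits the precision, since no molecule count stands behind a signal.

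After log2 transformation, lmFit and eBayes of limma 3.58.1 were run in R 4.3.3, dCINs against MNs on 14 arrays and MIX contrasts on all 22 arrays with a mean per group. A call needed an adjusted p under 0.1 (Benjamini-Hochberg, 1050 tests). Within-array differences were compared by exact permutation in Python 3.11.15, and figures were drawn with matplotlib 3.10.9. The text names every member, the called probe sets of each cytoskeleton list or else those with the smallest p, the markers and the 5 closest patterns of each neurofilament gene. The scripts were tested on simulated data. Alternatives were weights per array, the number of cells or the arrays numbered 1 and 2 as a covariate, the array number as a replicate block, quantile normalization, subtracted array medians, an offset of 32, a filter at a mean log2 of 6, a trended and robust prior, a threshold of 0.05, other sets of arrays, and leaving out each array. The members and lists were chosen with earlier results of these data known. The real time RT-PCR values and the probe-level intensities were not analysed here.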

Additional observations from a re-analysis of the deposited data

Results flagged for a closer look

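In 4 of 45 groups of member values, 1 array lay far from the others by Dixon's criterion, which chance meets in about 1 in 20 groups. All 4 were dim probe sets. On the dim Nefl probe set, dCIN replicate 3 read 52.8 and the next array 45.1. On the dim Nefh probe set, MIX replicate 7 read 104 and the next array 45.7. On Map2 rc_AI228850_s_at, dCIN replicate 1 read 125 and the next array 75.5. On Map2 X17682_s_at, MN replicate 4 read 117 and the next array 51.4.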

How the results depend on the processing

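The bright Nefl and Nefh probe sets stayed called between dCINs and MNs in all 27 alternatives, with log2 differences of -1.25 to -1.08 and -1.37 to -1.03. Of the probe sets called there, 3 of 40 were members, against 5 of 76 with array weights and 6 of 57 on arrays numbered 3 and above. With 1 array left out, 2 to 3 members were called, beside 31 to 55 probe sets in all. Between MIX and MNs 0 of 10 called probe sets were members, and 1 of 33 with array weights. With 1 array left out, 0 to 1 members were called there, beside 2 to 14 probe sets in all. Between MIX and dCINs 1 of 5 called probe sets was a member. It was 2 of 5 with the filter on mean log2 and 2 of 68 with the number of cells as covariate. It was 0 of 2 with quantile normalization, 0 of 2 with an intensity trend and robust prior, and 0 of 4 with array weights. It was 0 of 7 on arrays numbered 3 and above, 0 of 1 at an adjusted p under 0.05 and 0 of 5 on the arrays of the 2 groups alone. With 1 array left out, 0 to 2 members were called, beside 1 to 8 probe sets in all. The cause was not tested, except that fewer probe sets or arrays enter some of these fits. The 4 passing within-array pairs passed in all 16 of their alternatives.

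Over all probe sets, calls between dCINs and MNs numbered 40, against 76 with array weights and 83 with arrays 1 and 2 as covariate. Between MIX and MNs they numbered 10, with a range of 2 to 33, and between MIX and dCINs 5, with a range of 1 to 68. Same-numbered dCIN and MN arrays did not all deviate together (r from -0.19 to 0.53), so the numbers were not taken to pair the samples. With the array number as a replicate block, 3 members and 55 probe sets were called between dCINs and MNs. Under that setting 0 members and 9 probe sets were called between MIX and MNs, and 2 members and 7 probe sets between MIX and dCINs. Signal over background limits the Map1b probe sets, whose group means of 17.2 to 35.3 lay below the array medians. The same holds for Map2 S74265_s_at, with group means of 13.6 to 18.0, and for the dim Nefh probe set, with 33.7 to 43.0. Map2 X53455cds_s_at lay below the array medians in dCINs and MNs, at 36.3 and 37.2.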
